A study of Cavia porcellus with 30 samples.

Results

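In cultured epithelial cells of the guinea pig proximal tubule, 65 transcripts had higher mean levels under mercuric chloride at 2 doses and both times. The members were selected on these same libraries from 25824 transcripts, of which 15909 reached a mean of 1 TPM (the length-corrected level that Kallisto reports) in some group. For each dose and time, the mean TPM of the treated group was set against that of the vehicle group of the same time as log2((treated + 0.5)/(vehicle + 0.5)). A member had a value of at least 1 in all 4 treated conditions, which is near a doubling for an abundant transcript and a larger fold for one under 1 TPM in vehicle, because of the 0.5 added. That the members lay above vehicle is therefore how they were chosen, and their values against vehicle are given as a description with no test.

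The cells came from Hartley guinea pigs 6 to 8 weeks old and were grown as a primary culture and replated. The last 48 h before exposure were spent in Hepatocyte Maintenance Medium, which was also the vehicle, and HgCl2 was given at 30 µM (low dose) or 40 µM (high dose) for 12 h or 24 h. Each of the 6 groups held 5 poly-A-enriched RNA-seq libraries, 30 in all. Nothing in the labels says whether the 5 libraries of a group came from separate animals or from separate wells, so the p-values below measure the spread between these libraries, which may be technical.

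The proximal tubule takes up much of the filtered solute of the kidney and is the main site where inorganic mercury collects. Mercuric ions bind thiol groups of proteins and of glutathione. Cells exposed to them are known to make metallothioneins, enzymes of glutathione synthesis and heat-shock proteins. The tables used here pair transcript identifiers with gene numbers at most and not with gene names, so which of the members belong to these systems could not be told, and the labelled cell type could not be checked against its markers. The members are described by identifier, length, level and response.

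The total of estimated counts ran from 21651452 to 35021210 per library. Among 60 pairs of libraries of the same group, counts differed by more than sampling noise in every pair (chi-square per degree of freedom from 6.21 to 53.1), so no library was counted as a repeat of another. On the second principal component of all transcripts, which held 8.56% of the variance, replicate 5 of 30 µM at 24 h (score 59.6) and replicate 5 of 30 µM at 12 h (score 37.8) stood apart from their groups. Counts of calls in the comparisons that use these libraries are given with and without them, and no difference between the doses at 12 h or 24 h lost its call without either in the members named with values. RNA was pooled over all cells of a culture, so fewer cells of a kind and less RNA per cell cannot be told apart.

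The members together held a small part of the RNA in vehicle-treated cells and several times more after exposure. Their summed TPM was 0.890% ± 0.0158 (SD, n = 5) of all TPM in vehicle at 12 h and 0.856% ± 0.0119 (n = 5) in vehicle at 24 h. At 12 h it was 3.38% ± 0.0563 (n = 5) at 30 µM and 5.24% ± 0.318 (n = 5) at 40 µM. At 24 h it was 2.99% ± 0.0968 (n = 5) at 30 µM and 2.78% ± 0.131 (n = 5) at 40 µM. At 12 h the lowest library at 40 µM (4.73%) lay above the highest at 30 µM (3.45%), while at 24 h the ranges met (2.59% to 2.89% at 40 µM and 2.87% to 3.12% at 30 µM). A few members carried most of these sums: the 10 most abundant held from 77.6% to 83.1% of the members' TPM in every group.

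**Figure D1:**
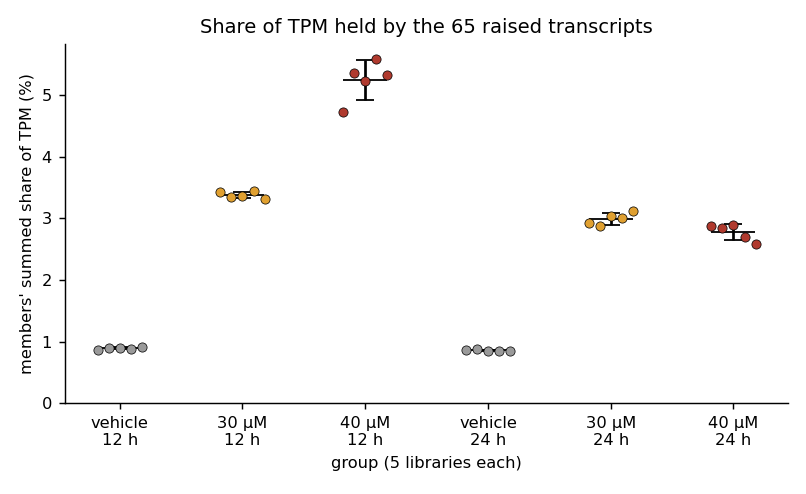
Percent of all TPM held by the 65 members (vertical axis) in each library (points) of the 6 groups, with the group mean and SD (bars, n = 5). The share lay near 0.9% in both vehicle groups, was highest at 40 µM for 12 h (5.24%), and lay near 3% in both groups exposed for 24 h.

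In the vehicle cultures, which ran beside the exposed ones, the members ranged from undetected to very abundant. Their median level in vehicle was 8.23 TPM at 12 h and 6.95 TPM at 24 h, against 12.3 and 11.6 TPM over the 15909 transcripts. At 12 h in vehicle 13 members lay under 1 TPM and 3 lay at or above 1000 TPM. Over both vehicle times, 14 members had a mean under 1 TPM, 21 lay from 1 to 10 TPM, 13 from 10 to 100 TPM, and 17 at or above 100 TPM. At 40 µM for 12 h the median log2 difference from vehicle was 3.43 in the band under 1 TPM, 2.07 from 1 to 10 TPM, 2.08 from 10 to 100 TPM and 1.91 at or above 100 TPM. At 30 µM for 12 h the same bands had medians of 1.77, 1.68, 2.34 and 1.76, and no order by baseline is read from either set, since the 0.5 added makes the differences in the lowest band smaller than the fold changes and some of its members had 3 counts or fewer in vehicle.

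The median length of the members was 1500 bases, against 2418 over the 15909 transcripts, and 10 of them (15.4%, against 5.02% of all) were under 500 bases. Among these short members, ENSCPOT00000023365.2, ENSCPOT00000038640.1, ENSCPOT00000036303.1, ENSCPOT00000026370.2 and ENSCPOT00000031805.1 had highest group means of only 2.0 to 27.2 estimated counts. The other short members had 79.4 to 12059. Estimated counts were within 1e-06 of a whole number in all libraries for 34 members (52.3%, against 38.6% of all). For the other 31 the estimates were fractional, which happens where reads fit more than one annotated transcript, so the level of each of these is less certain. In their highest group 43 members had a mean of at least 1000 estimated counts and 7 had under 50.

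The median log2 difference from vehicle over the 65 members was 1.79 at 30 µM and 2.09 at 40 µM after 12 h, and 1.74 and 1.54 after 24 h. The medians over all 15909 transcripts were -0.09, -0.05, -0.03 and -0.005. With the 7 or 8 members at or under 3 counts in every vehicle library set to the limit that 3 counts allow, the members' medians were 1.70, 2.01, 1.69 and 1.52. The highest values were 7.71, 10.46, 8.69 and 8.16 in the same order. In 39 members the largest of the 4 differences was at 40 µM for 12 h, in 16 at 30 µM for 24 h, in 6 at 30 µM for 12 h and in 4 at 40 µM for 24 h. The smallest was at 40 µM for 24 h in 35 members.

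The size of the rise varied widely among the members. All 4 differences were under 2 in 25 of the 65 members, all were at least 2 in 11, and all were at least 3 in 3, which were ENSCPOT00000044307.1, ENSCPOT00000040932.1 and ENSCPOT00000004231.3. All 20 treated libraries lay above all 10 vehicle libraries in 55 of the 65 members, and in 1.57% of the 15909 transcripts. Because the rule used the same libraries, nothing is read from that count. Each dose overlapped vehicle at both times in ENSCPOT00000013496.3, ENSCPOT00000023365.2, ENSCPOT00000035235.1, ENSCPOT00000036303.1 and ENSCPOT00000031485.1, where the rise is one of group means alone. The last had 120.53 estimated counts in replicate 2 of vehicle at 12 h and 0 in replicate 4 of 40 µM at 24 h.

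The rule had a sharp edge. The members nearest to it had smallest differences of 1.002, 1.003 and 1.021, and the transcripts just outside had 0.981, 0.981 and 0.974. Within 0.1 of the threshold lay 13 members and 12 excluded transcripts. Leaving out 1 library at a time gave 61 to 67 members, and 51 of the 65 stayed members whichever library was left out.

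Identifiers are named below by a rule on the change of the 40 µM difference with time (ENSCPOT00000040932.1, ENSCPOT00000047407.1 and ENSCPOT00000025390.2), and the others were chosen after their values were seen.

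**Figure D2:**
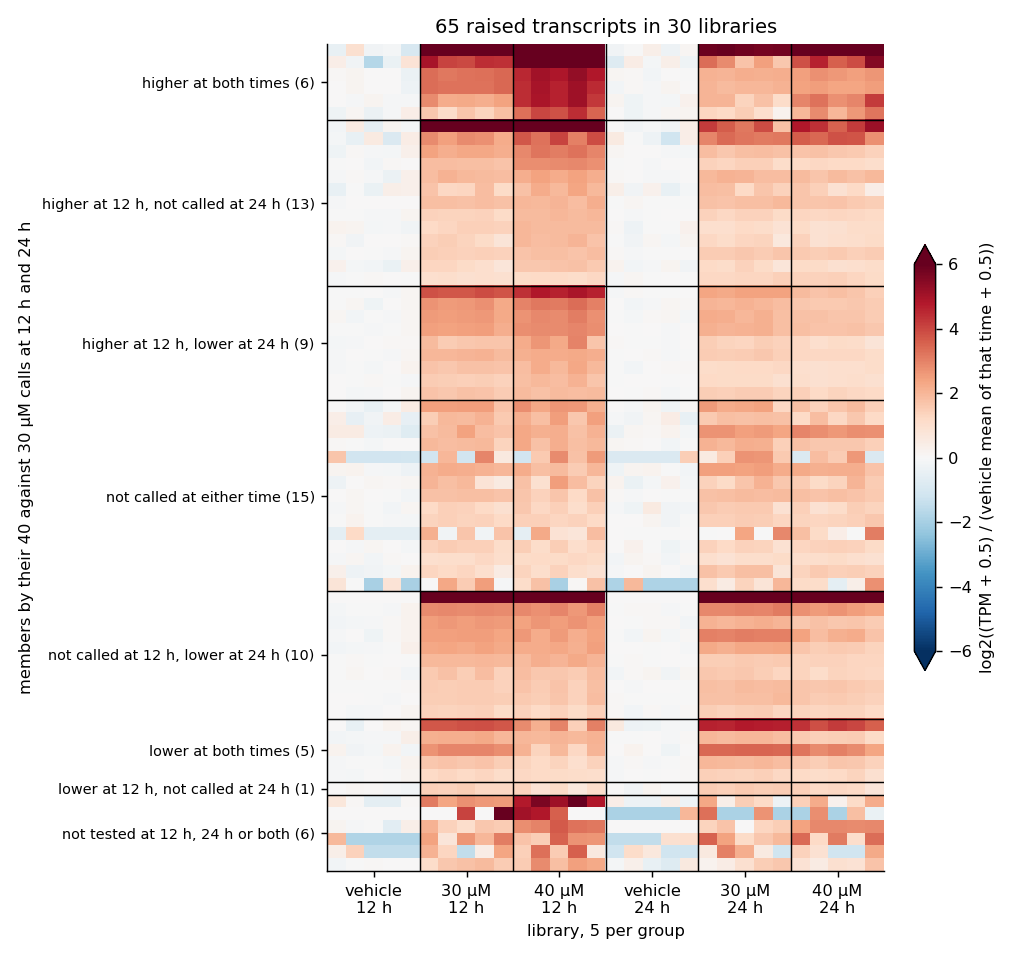
Log2 of the TPM (plus 0.5) of each of the 65 members (rows) in each of 30 libraries (columns, 5 per group), relative to the vehicle mean of the same time (plus 0.5). Rows are ordered by whether 40 µM was called higher or lower than 30 µM at each time, with the number of members in parentheses. The colour scale ends at -6 and 6. The 6 members higher at 40 µM at both times include the deepest red block, at 40 µM for 12 h, and most rows are paler at 40 µM for 24 h than for 12 h.

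After 12 h, where members differed between the doses, the higher dose mostly gave the higher level. The comparison of 40 µM with 30 µM asks whether more mercuric chloride raised the members further. It was not itself used by the rule, which set a minimum that both doses had to reach over vehicle. The same treated libraries nevertheless chose the members, which were picked for a response to both doses. Shares of all transcripts here and in the later dose comparisons are background, and nothing is read from an excess over them. Of the 61 members with enough counts to test, 30 were higher at 40 µM and 6 were lower (edgeR quasi-likelihood test, adjusted p under 0.1 over all transcripts), while 16.8% of all 16684 transcripts tested were higher and 16.7% were lower. The median log2 fold change was 0.19 over the members tested and 0.02 over all transcripts, and it was 0.65 among the members called higher. Without replicate 5 of 30 µM at 12 h the counts were 29 and 6.

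The fold changes of the members called higher ran from 0.16 to 2.92 on the log2 scale. ENSCPOT00000044307.1, a transcript of 678 bases with whole counts, had 1.14, 3.91, 1.42, 1.59 and 0.661 TPM in the 5 vehicle libraries at 12 h. At 30 µM it had 526, 498, 408, 384 and 368 TPM, and at 40 µM 2810, 3150, 3210, 3240 and 3390 TPM. The 3 groups did not overlap, and the log2 fold change between the doses was 2.82 ± 0.10 (SE, n = 5 per dose, edgeR adjusted p = 1.55e-07).

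ENSCPOT00000011224.3 was the member with the highest level after exposure. This transcript of 189 bases was already abundant in vehicle at 12 h, with 460, 497, 457, 450 and 349 TPM. It had 4470, 3940, 4260, 4380 and 4810 TPM at 30 µM and 10100, 14600, 12600, 17000 and 12500 TPM at 40 µM. Every library at 40 µM lay above every library at 30 µM, with a log2 fold change of 1.55 ± 0.12 (SE, n = 5 per dose, edgeR adjusted p = 1.86e-05). It alone made up 25.5% of the members' TPM at 40 µM for 12 h, and in the other 5 groups the leading member was ENSCPOT00000025069.2.

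The opposite order was rarer at 12 h. ENSCPOT00000047612.1 had 5.55, 3.87, 5.65, 6.40 and 6.09 TPM in vehicle. It had 79.8, 78.9, 85.6, 87.8 and 78.5 TPM at 30 µM, and 42.1, 26.0, 46.5, 15.8 and 47.9 TPM at 40 µM. All libraries at 40 µM lay between those of vehicle and of 30 µM, and the log2 fold change between the doses was -1.22 ± 0.25 (SE, edgeR adjusted p = 0.00461). ENSCPOT00000045579.1 showed the same order, with 87.9, 103, 104, 102 and 93.5 TPM at 30 µM and 57.8, 34.0, 51.0, 31.7 and 54.5 TPM at 40 µM (log2 fold change -1.14 ± 0.16, edgeR adjusted p = 0.000626). The estimates of both transcripts were fractional.

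After 24 h the order of the doses was mostly the opposite in the members that differed. Of 59 members tested, 6 were higher at 40 µM and 24 were lower by the same edgeR test, against 1.7% and 1.88% of all 16664 transcripts tested. The median log2 fold change was -0.19 over the members and 0.01 over all transcripts, so the called members were lower by small amounts (median -0.37) while the 6 that were higher had a median of 1.96. The fits that follow are given without the share of all transcripts called in them. A change in the number of members called may therefore not be particular to the members. The count of lower members rested on single libraries. It was 12 without replicate 3 and 14 without replicate 4 of 30 µM, 13 without replicate 2 and 15 without replicate 4 of 40 µM, and 29 without replicate 5 of 30 µM, the library that stood apart. With the position of the sample title's number as a block it was 0, and the count of higher members was 1, while the fitted differences kept their direction and most of their size in the members named below (-0.65 in ENSCPOT00000026740.2, -0.61 in ENSCPOT00000047612.1, -1.46 in ENSCPOT00000004231.3 and 0.40 in ENSCPOT00000011224.3, against -0.68, -0.66, -1.53 and 0.43 without the block).

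ENSCPOT00000044307.1 was among the members still higher at 40 µM. At 24 h it had 0.804, 0.987, 1.43, 0.741 and 1.13 TPM in vehicle, 89.1, 97.6, 84.9, 79.9 and 84.1 TPM at 30 µM, and 356, 481, 437, 404 and 487 TPM at 40 µM. The groups again did not overlap (log2 fold change 2.30 ± 0.10, edgeR adjusted p = 1.99e-06), although each dose had lost most of its 12 h level. For ENSCPOT00000011224.3 the doses lay closer together at 24 h, with 1710, 1640, 1770, 1720 and 1810 TPM at 30 µM and 2180, 2690, 2380, 2150 and 2480 TPM at 40 µM (0.43 ± 0.08, edgeR adjusted p = 0.0196).

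The 12 h and 24 h comparisons of dose share no library, but libraries of both times chose the members. Their calls are therefore set against each other as a description. Of the 30 members higher at 40 µM after 12 h, 6 were also higher after 24 h, 9 were lower, 13 were not called and 2 (ENSCPOT00000031805.1 and ENSCPOT00000038137.1) had too few counts to test. Over all transcripts higher at 12 h and tested at 24 h, 3.34% were higher and 2.09% lower at 24 h. Of the 6 lower at 12 h, 5 were lower again and 1 (ENSCPOT00000026526.2) was not called. Of the 25 not called at 12 h, 10 were lower at 24 h and 15 were not called, while over all transcripts 6.16% of those lower at 12 h and 0.777% of those not called were lower at 24 h. Leaving out 1 library of 24 h at a time, the counts of 6, 9, 5 and 10 ran from 4 to 6, 5 to 10, 3 to 6 and 4 to 14, and with the title-position block at 24 h they were 1, 0, 0 and 0. The remaining 4 (ENSCPOT00000023365.2, ENSCPOT00000026370.2, ENSCPOT00000036303.1 and ENSCPOT00000038640.1) were not tested at either time, and their highest group means were 2.0, 10.0, 4.6 and 3.8 estimated counts. Their membership rests on very few reads.

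The 6 members higher at both times and the 9 that changed order are groups made from the calls, so their values are a description. Whole estimates were found in all 6 and in 8 of the 9. The median length was 589 bases in the 6 and 1680 bases in the 9. Vehicle levels at 12 h had a median of 2.36 TPM in the 6 (range 0.0222 to 442) and of 80.5 TPM in the 9 (range 8.23 to 139, inside that of the 6). The median log2 difference from vehicle at 40 µM fell from 4.82 at 12 h to 2.97 at 24 h in the 6, and from 2.42 to 1.28 in the 9.

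ENSCPOT00000026740.2 was among the 9 that changed order. At 12 h it had 84.2, 85.2, 86.8, 80.9 and 94.1 TPM in vehicle, 1220, 1150, 1160, 1320 and 1190 TPM at 30 µM, and 1800, 2390, 2150, 2560 and 2110 TPM at 40 µM (log2 fold change between doses 0.84 ± 0.09, edgeR adjusted p = 0.000123). At 24 h it had 384, 362, 399, 409 and 403 TPM at 30 µM and 284, 249, 262, 242 and 205 TPM at 40 µM (-0.68 ± 0.08, edgeR adjusted p = 0.00437). The doses did not overlap at either time, with 40 µM above at 12 h and below at 24 h, and vehicle at 24 h lay between 71.4 and 78.9 TPM.

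**Figure D3:**
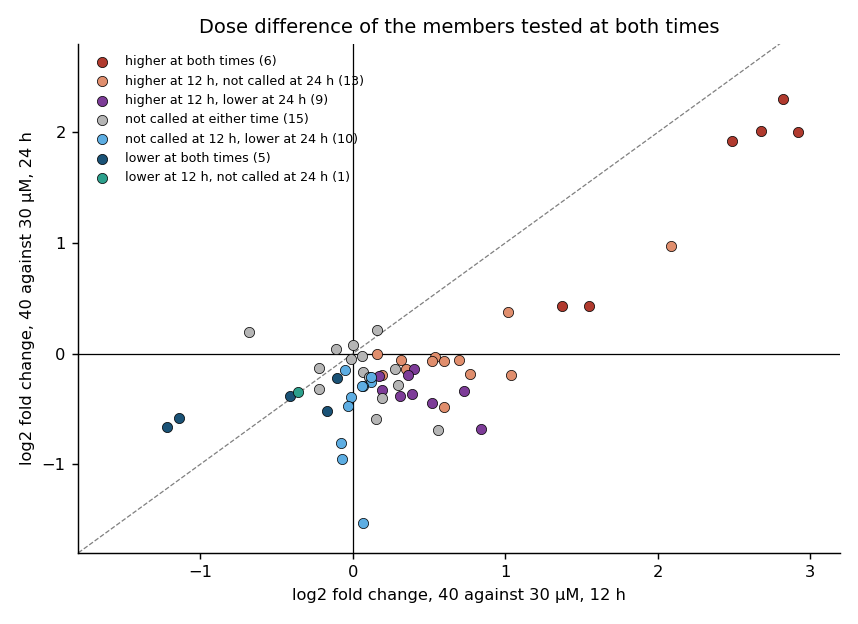
Log2 fold change of 40 µM against 30 µM at 12 h (horizontal axis) and at 24 h (vertical axis) for the 59 members tested at both times. Colours give the calls at the 2 times with the number of members, and the dashed line marks equal values. Most points lie below the line, 4 members called higher at both times stand at the upper right, and the 2 with the most negative values at 12 h are ENSCPOT00000047612.1 and ENSCPOT00000045579.1.

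The change of the dose difference between the times was tested in the 20 treated libraries together. Among 62 members tested the difference between 40 and 30 µM moved downward with time in 35 and upward in 1, against 8.73% and 9.64% of all 17508 transcripts tested (edgeR, adjusted p under 0.1). The median change was -0.52 on the log2 scale in the members and -0.01 over all transcripts. The downward count was 34 without replicate 5 of 30 µM at 12 h and 35 without replicate 5 of 30 µM at 24 h. For ENSCPOT00000026740.2 the change was -1.53 ± 0.13 (SE, edgeR adjusted p = 3.47e-07), and for ENSCPOT00000011224.3 it was -1.12 ± 0.15 (edgeR adjusted p = 4.84e-05). The upward call was that of ENSCPOT00000045579.1 (0.56 ± 0.21, edgeR adjusted p = 0.0902), whose call was lost without any of 14 of the 20 libraries while the value stayed between 0.45 and 0.59.

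The log2 difference from vehicle was smaller at 24 h than at 12 h in 50 of the 65 members at 40 µM and in 36 at 30 µM. Both contrasts with vehicle entered the rule, so the change of these differences with time is a description, with no p-value for any member. At 30 µM the rise at 24 h, in mean TPM over vehicle, was a median of 90.5% of the rise at 12 h (range 11.3% to 197%), with 10 members under 50% and 25 over 100%. At 40 µM the median was 49.9% (range 3.99% to 246%), with 33 members under 50%, 9 of them under 20%, and 13 over 100%.

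**Figure D4:**
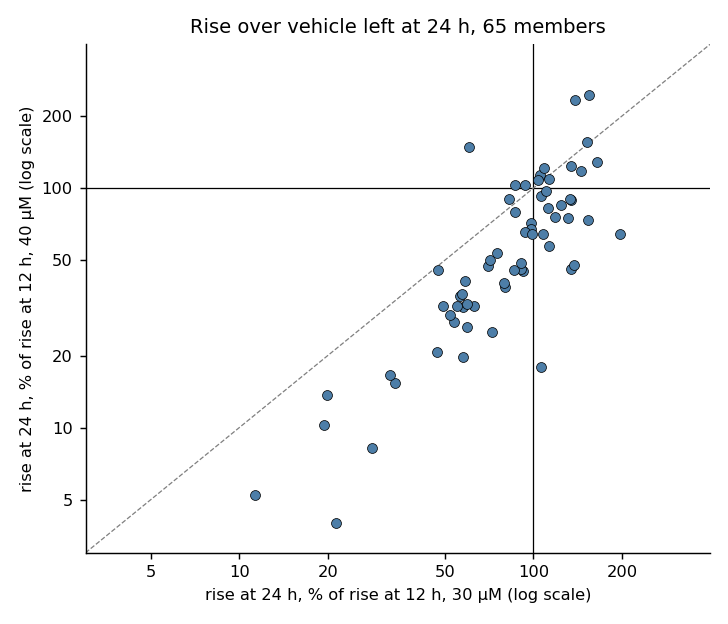
Rise over vehicle in mean TPM at 24 h as a percent of the rise at 12 h, at 30 µM (horizontal axis) and 40 µM (vertical axis), both on log scales, for the 65 members. Solid lines mark 100% and the dashed line equal values. Most points lie below the dashed line, with medians of 90.5% at 30 µM and 49.9% at 40 µM. Both axes are computed with the same vehicle libraries.

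In the fit of the 40 µM effect at 24 h against that at 12 h, 33 of 61 members fitted were past the threshold in the lower direction and 3 in the higher, against 14.2% and 15.8% of all 17512 transcripts tested (edgeR, adjusted p under 0.1). The median change was -0.62 on the log2 scale in the members and 0.00 over all transcripts. For 30 µM, 17 of 60 members fitted were lower and 7 were higher, against 2.09% and 1.64% of all 17393 transcripts tested, with a median of -0.12. Because the rule used the same contrasts, nothing is read from these counts against those of all transcripts. Nor is anything read from a named member passing or missing the threshold in these fits. The 2 fits share their vehicle libraries. The counts at 30 µM were 17 and 6 without replicate 5 of 30 µM at 12 h and 17 and 7 without replicate 5 of 30 µM at 24 h. Leaving out each library in turn, the lower count ran from 15 to 18 and the higher from 4 to 7.

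ENSCPOT00000040932.1, of 1932 bases with whole counts, had the most negative fitted change of the 40 µM effect with time. In vehicle at 12 h it had 0.543, 1.14, 0.315, 0.819 and 0.579 TPM. At 40 µM it had 318, 603, 334, 922 and 178 TPM at 12 h and 31.0, 22.9, 12.6, 20.3 and 39.4 TPM at 24 h. The libraries at 24 h lay far below those at 12 h but above vehicle at 24 h, where the values ran from 0.471 to 0.986 TPM. The 40 µM effect changed by -4.20 ± 1.32 (SE) in the fit.

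At 30 µM ENSCPOT00000040932.1 had 152, 88.9, 91.8, 76.0 and 132 TPM at 12 h and 20.2, 13.8, 9.84, 16.6 and 3.33 TPM at 24 h. The times did not overlap, and the lowest value at 24 h was that of replicate 5, which stood apart. The 30 µM effect changed by -3.07 ± 0.79 (SE) and by -2.84 without that library. It was no longer past the threshold without vehicle replicate 5 at 24 h (-2.85) or with all 30 libraries in 1 fit (-3.06).

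ENSCPOT00000047407.1, of 1832 bases with whole counts, was nearly absent from vehicle, with 0 to 2 counts per library at 12 h and 0 to 6 at 24 h. It had 3.21, 1.98, 2.04, 1.85 and 2.26 TPM at 30 µM and 10.9, 15.2, 12.3, 17.0 and 9.26 TPM at 40 µM after 12 h. After 24 h it had 1.88, 1.89, 0.969, 1.52 and 0.750 TPM at 30 µM and 4.01, 5.20, 3.44, 4.01 and 10.3 TPM at 40 µM. The doses did not overlap at either time (log2 fold changes 2.49 ± 0.20 and 1.92 ± 0.36, edgeR adjusted p = 2.76e-05 and 0.0249). The fitted change of the 40 µM effect was -3.17 ± 0.99 (SE), a value that depends on how the fit treats the vehicle counts near 0.

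The 3 members past the threshold in the higher direction at 40 µM were ENSCPOT00000047612.1 (1.43 ± 0.38, SE), ENSCPOT00000045579.1 (1.10 ± 0.25) and ENSCPOT00000025390.2 (0.26 ± 0.11). The last was not past it in 11 of 28 alternatives, among them the title-position block and 9 single left-out libraries, with values of 0.20 to 0.27 in those fits. At 40 µM for 24 h ENSCPOT00000047612.1 had 97.3, 71.0, 88.9, 76.8 and 58.3 TPM, all above its 12 h values, and ENSCPOT00000045579.1 had 110, 85.0, 96.0, 85.4 and 61.5 TPM, also all above. Both had their highest levels at 30 µM for 24 h, from 113 to 130 TPM in ENSCPOT00000047612.1 and from 127 to 133 TPM in ENSCPOT00000045579.1.

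ENSCPOT00000025390.2, of 2922 bases with whole counts, differed little in level between the times in treated cells. At 30 µM it had 77.8, 83.2, 77.3, 82.3 and 70.3 TPM at 12 h and 78.9, 77.3, 73.5, 78.5 and 71.1 TPM at 24 h. At 40 µM it had 62.4, 56.9, 62.6, 50.6 and 65.2 TPM at 12 h and 62.0, 55.7, 63.5, 62.2 and 51.9 TPM at 24 h. The low dose lay above the high dose with no overlap at both times (-0.41 ± 0.07 and -0.38 ± 0.06, edgeR adjusted p = 0.00148 and 0.00914). Its small change of the 40 µM effect went with vehicle, which had 23.5, 24.5, 24.6, 22.9 and 28.4 TPM at 12 h and 18.5, 20.9, 18.7, 19.2 and 20.9 TPM at 24 h.

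ENSCPOT00000004231.3, of 889 bases, has fractional estimates, and each of the 10 vehicle libraries was at 0 counts. Its levels were 109, 109, 107, 104 and 92.3 TPM at 30 µM and 117, 114, 119, 65.2 and 141 TPM at 40 µM after 12 h. After 24 h it had 188, 183, 219, 215 and 224 TPM at 30 µM and 113, 58.0, 85.4, 64.2 and 36.4 TPM at 40 µM. Against 3 counts in each vehicle library these levels were at least 416-fold and 446-fold higher at 12 h and at least 818-fold and 287-fold higher at 24 h. The doses overlapped at 12 h (0.07 ± 0.16, edgeR adjusted p = 0.805). The missing call rested on replicate 4 of 40 µM, the library at 65.2 TPM, without which the difference was 0.21 and was called. At 24 h the high dose lay below the low dose in every library (-1.53 ± 0.24, edgeR adjusted p = 0.0131).

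**Figure D5:**
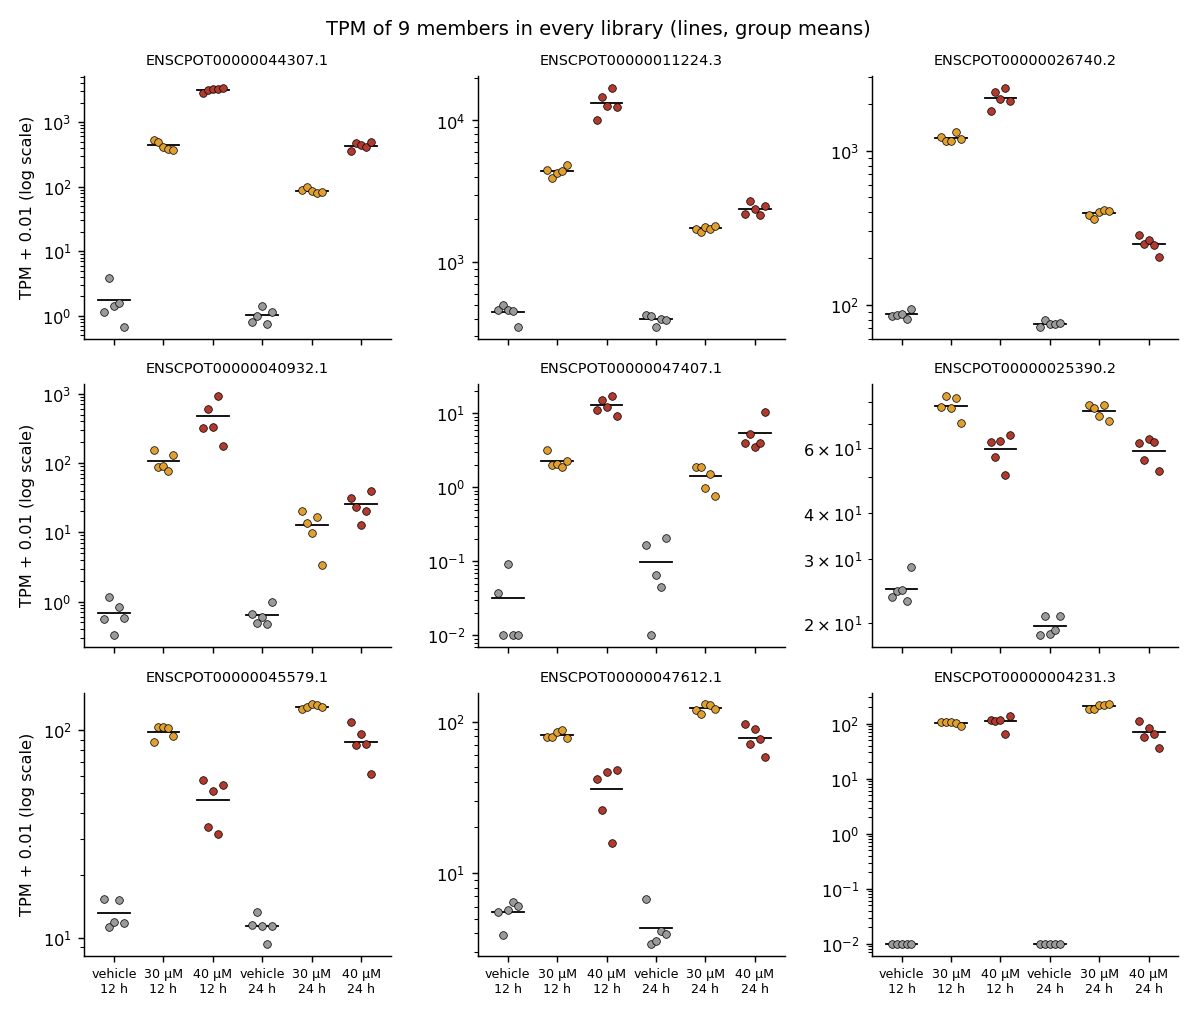
TPM plus 0.01 on a log scale (vertical axes, which differ between panels) of 9 members in each of 30 libraries (points), by group, with group means as lines. All treated points lie above all vehicle points in the 9 panels. The top row shows 40 µM above 30 µM at 12 h, and the bottom row shows 30 µM above 40 µM at 24 h.

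In vehicle itself the number of members that changed between the times depended on the test. Of 49 members tested, 1 was higher at 24 h and 3 were lower, against 1.38% and 0.782% of all 16614 transcripts tested (edgeR, adjusted p under 0.1), and the median was -0.04 on the log2 scale. DESeq2 called 2 of 45 members higher and 10 lower, against 4.44% and 3.68% of all transcripts it tested. At either pseudocount limma called 1 of 65 higher and 10 lower. Of all transcripts it called 0.981% higher at a pseudocount of 0.5 and 0.968% at 0.1, and 6.66% lower at both. With the title-position block 0 were higher and 0 lower, although the value of ENSCPOT00000025390.2 was -0.26 with it. The higher member was ENSCPOT00000039558.1 (0.25 ± 0.03, adjusted p = 0.00646). The lower members were ENSCPOT00000006678.3 (-0.37 ± 0.07, adjusted p = 0.041), ENSCPOT00000020078.2 (-0.32 ± 0.06, adjusted p = 0.0324) and ENSCPOT00000025390.2 (-0.27 ± 0.06, adjusted p = 0.0591), the last of which lost its call in 7 of 18 alternatives at values of -0.25 to -0.27. The other 16 members had too few vehicle counts to test.

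The spread between the libraries of a group varied with the group. Over all members the median coefficient of variation over 5 libraries was 11.6% in vehicle, 7.39% at 30 µM and 14.6% at 40 µM for 12 h, against 8.65%, 9.71% and 10.8% over all transcripts. For 24 h it was 9.41%, 7.62% and 9.34%, against 7.84%, 10.3% and 8.76%. Over the 52 members detected in every library it was 9.24%, 6.59% and 11.1% for 12 h and 7.75%, 6.32% and 8.57% for 24 h, so that the members exceeded all transcripts on both counts in vehicle and at 40 µM for 12 h alone. Single libraries held many of the extreme values. At 40 µM for 12 h replicate 4 held the highest value of the group in 20 of the 30 members that were higher at this dose, and the lowest value in 4 of the 6 that were lower. That library also had the highest score of its group on the first principal component of all transcripts (52.6, against 34.4 to 49.2 in the other 4). At 40 µM for 24 h replicate 5 held the lowest value in 20 of the 24 members that were lower at this dose, and its score of 4.03 was again the highest of its group. Replicate 5 of 30 µM held the lowest value of its group in 38 of 65 members at 12 h and in 30 at 24 h. These tallies were not made over all transcripts, so they may not be particular to the members. The called members were also called on these same libraries. The part of these libraries in the dose differences was measured by leaving each out: 31 members were higher at 12 h without replicate 4 of 40 µM, and 19 were lower at 24 h without replicate 5 of 40 µM.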

How the data were processed

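Poly-A-enriched, stranded libraries of 30 cultures were sequenced as paired reads by the authors. The labels and the study's methods give different read lengths. The authors assigned reads to the Ensembl guinea pig transcriptome with Kallisto 0.42.4, per the submitters' processing notes, and the Ensembl release is not given in the sources used here. The deposited tables, 1 per library, hold per transcript an estimated count, not normalized, and a TPM computed by the authors, which is corrected for effective length and scaled to the same sum in every library. Kallisto shares reads among similar transcripts, so estimated counts can be fractional.

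Members were chosen on the group means of the deposited TPM with a pseudocount of 0.5 and a minimum of 1 TPM, and the members and the lists of comparisons were chosen with earlier results of these data known. Tests used the deposited estimated counts rounded to whole numbers, edgeR 4.0.16 (R 4.3.3) with TMM factors, its default filter on low counts, the quasi-likelihood F-test and Benjamini-Hochberg adjustment over all transcripts tested. The threshold was an adjusted p under 0.1, as in the study, whose own tool, Sleuth, was not used. Tests of 2 groups used 10 libraries and the other tests 20. The SE given with a log2 fold change was back-calculated as its absolute value over the square root of the F statistic. Totals ran from 21651452 to 35021210 estimated counts. Floors of 3 counts cover counting error only. The scripts were tested on simulated data.

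With no names paired to the identifiers, named members were, among those with whole estimates, at least 50 mean counts in the highest group and no overlap between either dose and vehicle, the 2 called members with the most negative and the 2 with the most positive change of the 40 µM effect with time. Only 1 of the latter met it. Of the identifiers, 0 of 25824 matched the RefSeq gene table, so lists of named genes, cell type markers and sequences were not analysed here. Alternatives were DESeq2 1.42.0, limma 3.58.1 on log2(TPM + 0.5) and log2(TPM + 0.1), other size factors, no filter, all 30 libraries in 1 fit, a stricter threshold, a block for the position in the sample titles, and leaving out each library.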

Additional observations from a re-analysis of the deposited data

Results flagged for a closer look

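In 58 sets of 5 libraries examined for the named members, 3 held a library far from the other 4, and chance gives about 1 in 20, or 2.9. ENSCPOT00000047407.1 had 10.3 TPM in replicate 5 of 40 µM at 24 h. ENSCPOT00000044307.1 had 3.91 TPM in replicate 2 of vehicle at 12 h, and ENSCPOT00000047612.1 had 6.71 TPM in replicate 1 of vehicle at 24 h.

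The difference between 40 and 30 µM changed between the times in 36 members, by a test of the change itself, downward in 35 (8.73% of all transcripts tested) and upward in 1 (9.64%), the latter lost without any of 14 libraries. The change of the difference from vehicle passed the same threshold in 24 members at 30 µM and in 36 at 40 µM, but those contrasts chose the members, so these counts and the values that follow are a description. In ENSCPOT00000040932.1 the effect was smaller at 24 h, by -3.07 on the log2 scale at 30 µM and -4.20 at 40 µM. In ENSCPOT00000025390.2 it was larger at 24 h, by 0.24 at 30 µM and 0.26 at 40 µM, values that missed the threshold in 14 and 11 of 28 alternatives.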

How the results depend on the processing

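The number of members was 96 with a pseudocount of 0.1, 52 with 1, 65 with no minimum TPM, 61 with a minimum of 5 TPM, and 69 with TMM-normalized CPM in place of TPM, of which 57 were among the 65. With other settings than a left-out library, 84 of the counts stayed within 1.5 times the value given and 17 did not. In the order higher and then lower, leaving out 1 library at a time gave 28 to 31 and 5 to 9 members for 40 against 30 µM at 12 h, 4 to 6 and 12 to 29 at 24 h, 0 to 1 and 34 to 37 for the change of that difference with time, 4 to 7 and 15 to 18 for the 30 µM effect, 2 to 4 and 32 to 35 for the 40 µM effect, and 1 and 1 to 4 for vehicle, the last being 1 without vehicle replicate 1 at 24 h. The number of members ran from 61 to 67.

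The labels give no replicate numbers shared between groups, and nothing in them says that the position of the title's number, used here as a block, pairs any libraries. With this title-position block the counts at 24 h for 40 against 30 µM were 1 higher and 0 lower, the upward change of the dose difference was called in 0 members, the 30 µM effect was larger at 24 h in 4, and vehicle had 0 higher and 0 lower. An adjusted p under 0.05 gave 0 members with an upward change of the dose difference and 4 with a larger 30 µM effect. The upward change was also called in 0 members with no filter and with limma at either pseudocount. All 30 libraries in 1 fit gave 2 members with a larger 30 µM effect. DESeq2 gave 5 members with a larger 40 µM effect, and for vehicle 2 higher and 10 lower, and limma at either pseudocount gave 10 lower. The causes were not tested, and most of these counts are given without the share of all transcripts called in the same fit. Depth limits the 7 members under 50 counts, whose levels and membership rest on few reads.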
